A study of Mus musculus with 8 samples.

Results

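The immunoglobulin heavy variable (Ighv) genes are the segments of the heavy chain locus from which each B cell takes 1 to build the antigen-binding part of its antibody. Of 183 genes whose names begin Ighv in the files, 124 had at least 10 unique molecular identifiers (UMIs, counted RNA molecules) summed over the 4 gene expression libraries, and these 124 are described here. Among the other 59 genes, 44 had no UMI and 15 had 1 to 9. Just below the limit stood Ighv1-62-1 with 8 UMIs and Ighv1-17 with 7, and just above it Ighv1-73 with 16 and Ighv1-28 with 18. Each cell was assigned the Ighv gene with most UMIs in it, in B cells (at least 1 UMI each of Cd79a and Ms4a1) and in plasma-gate cells (at least 5 UMIs of Jchain and 2 of Xbp1).

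The cells were live CD45-positive leukocytes sorted from liver metastases that grew from Venus-AKTPM/LOH colorectal cancer cells, 30 days after these were injected into the spleen. The knockout mice (Vav1CreTet2KO, n = 2) carry Cre under Vav1, which is active across the blood lineages, so Tet2 is lost in leukocytes in general and not in B cells alone. The control mice (Tet2fl/fl, n = 2) carry the floxed Tet2 gene; Cre is not named in their label. All 4 mice bore the same tumour cells. The labels give neither sex nor age. Tet2 encodes an enzyme that oxidises methylated cytosine in DNA.

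During B cell development, RAG enzymes join a heavy variable gene to a D and a J segment, cutting at a recombination signal made of a heptamer, a spacer and a nonamer just behind the gene. As a rule a B cell keeps 1 productive heavy chain, so its V gene marks its lineage, and a plasma cell, the antibody-secreting stage, transcribes that gene at very high levels. In mice, B-1 cells are a B cell lineage known for natural IgM antibodies, and part of them uses Ighv11-2 or Ighv12-3 with particular kappa chains to bind phosphatidylcholine, a membrane lipid.

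The libraries held 57190926 and 60456627 UMIs in knockout mice 1 and 2, and 89945864 and 91789597 in control mice 1 and 2. Cells that passed the filters numbered 10432 to 13083 per mouse, and any pair of libraries shared 272 to 303 cell barcodes. There were 3186 and 3939 B cells in the knockout mice and 479 and 518 in the control mice, so a share in a control mouse has a wider counting error. By the bare rule, with the 7 to 22 cells of both gates, which were counted as plasma-gate cells, the B cells numbered 3206, 3961, 490 and 525. The plasma gate held 39, 39, 64 and 32 cells in the same order. The 10 B cell markers that the gate did not use were found in the B cells of each mouse, and Mzb1, Sdc1, Prdm1, Tnfrsf17 and Derl3, plasma cell genes the gate did not use, were found in the plasma-gate cells of each mouse. Siglech, a defining marker of plasmacytoid dendritic cells, was at 0 in the plasma-gate cells of every mouse, while Ccr9, another of their markers, had a UMI in 2, 4, 10 and 3 of these cells. Bst2, also on the list of plasmacytoid markers, had a UMI in 84.6% and 82.1% of plasma-gate cells of the knockout mice. Cox6a2 of that list had a UMI in 2.56% in each knockout mouse, and Klk1 in none and 2.56%. The 6 monocyte and macrophage markers summed to 1361 and 1403 counts scaled to the library total (CPM) in B cells of the knockout mice and to 5835 and 3470 in those of the control mice. A UMI of Cd3e or Csf1r, genes of T cells and macrophages, was present in 5.96% and 8.10% of B cells in the knockout mice and in 16.1% and 10.0% in the control mice.

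The recombination signals of 8 genes on which the results turn are shown, each with the last 30 bases of the gene where the signal follows it directly. They were read from GRCm39 on the minus strand of chromosome 12, 5′ to 3′, with the heptamer and the nonamer in capitals. Ighv1-26 (chr12:114751953-114752021), Ighv3-6 (chr12:114251733-114251801) and Ighv1-55 (chr12:115171676-115171744) are the most used genes in B cells. Ighv2-9-1 (chr12:113733431-113733499) recurs in the plasma-gate cells of 1 control mouse, and Ighv8-8 (chr12:115257643-115257711) is the most used gene of its family. Ighv11-2 (chr12:114011822-114011890) and Ighv12-3 (chr12:114330101-114330139) are the phosphatidylcholine genes, and Ighv5-2 (chr12:113542085-113542153) is a much studied gene close to the D segments.
Ighv1-26: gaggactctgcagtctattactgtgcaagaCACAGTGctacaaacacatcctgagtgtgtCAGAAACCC
Ighv3-6: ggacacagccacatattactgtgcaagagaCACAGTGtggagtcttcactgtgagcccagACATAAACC
Ighv1-55: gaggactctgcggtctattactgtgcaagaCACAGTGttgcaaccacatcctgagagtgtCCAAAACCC
Ighv2-9-1: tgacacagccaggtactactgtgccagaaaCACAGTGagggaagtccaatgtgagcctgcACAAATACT
Ighv8-8: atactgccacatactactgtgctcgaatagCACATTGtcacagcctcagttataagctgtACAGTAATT
Ighv11-2: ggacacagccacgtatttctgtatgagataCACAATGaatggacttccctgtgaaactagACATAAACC
Ighv12-3: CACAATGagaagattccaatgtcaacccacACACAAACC
Ighv5-2: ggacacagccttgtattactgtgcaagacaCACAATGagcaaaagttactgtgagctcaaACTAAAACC

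The heptamer read CACAGTG in Ighv1-26, Ighv3-6, Ighv1-55 and Ighv2-9-1, as it did at 109 of the 183 genes and 92 of the 124 described. Ighv11-2, Ighv12-3 and Ighv5-2 shared the heptamer CACAATG, which stood at 10 genes, all of them among the 124. Genes with CACAGTG were the top gene of 83.2% and 85.4% of assigned B cells in the knockout mice and of 84.9% and 86.0% in the control mice, so the genotypes overlapped.

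Upstream of most heavy variable genes lies the octamer, a site for the factors Oct1 and Oct2, encoded by Pou2f1 and Pou2f2, which drives immunoglobulin transcription. Promoter stretches of Ighv3-6, used much in every mouse, of Ighv1-80 and Ighv11-2, each called in 1 test, and of Ighv12-3, the other phosphatidylcholine gene, are shown with the octamer in capitals, also from the minus strand of GRCm39. They come from Ighv3-6 (chr12:114252252-114252321), Ighv1-80 (chr12:115876444-115876513), Ighv12-3 (chr12:114330626-114330695) and Ighv11-2 (chr12:114012413-114012442, where the octamer begins at the annotated gene start).
Ighv3-6: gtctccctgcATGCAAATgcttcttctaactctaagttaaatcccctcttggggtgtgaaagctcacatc
Ighv1-80: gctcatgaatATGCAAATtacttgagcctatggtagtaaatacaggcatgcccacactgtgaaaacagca
Ighv12-3: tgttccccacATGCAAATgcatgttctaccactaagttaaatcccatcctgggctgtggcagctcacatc
Ighv11-2: gcaggaaggcATGCAAATagggcctctttc

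Searched on both strands from 250 bases before to 50 bases after the annotated start, the letters ATGCAAAT were found at 91 of 113 Ighv genes annotated as functional (80.5%) and at 37 of 70 annotated as pseudogenes (52.9%). Of 639 protein-coding promoters of chromosome 12 searched alike, 9 held them (1.41%). Ighv1-26, the most used gene, had no match in this window, and genes without a match were the top gene of 16.7% to 19.4% of assigned B cells per mouse.

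The Ighv genes span 2.44 Mb of chromosome 12 (113536547 to 115973713 in GRCm39). Of the 124 genes, 104 are annotated as functional and 20 as pseudogenes, against 9 and 50 of the 59 genes under the limit. Of the 124, 108 were the top gene of at least 1 B cell and 73 of a B cell in every mouse. The 16 that were top in no B or plasma-gate cell included 12 pseudogenes. Pseudogenes were the top gene of 10, 7, 1 and 2 B cells in the knockout mice and then the control mice, at most 0.401% of the cells of a mouse. The V exons of 26 of the 124 are at least 97% identical to another Ighv gene, and how reads that match both copies were counted is not given in the sources used here. They include Ighv1-26 and Ighv1-18 (97.4% identical to each other), Ighv2-2, Ighv1-15, Ighv1-72 and Ighv11-2, whose values are uncertain to that extent.

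Nearly every B cell had an Ighv UMI: 97.1% and 97.4% in the knockout mice and 94.8% and 96.9% in the control mice. In T cells (Cd3e) the shares were 4.67% and 1.64% in the knockout mice and 2.55% and 3.42% in the control mice, and in monocytes and macrophages (Csf1r) they were 4.95%, 1.70%, 3.13% and 3.34%. These cell types do not express an antibody, so their shares give the background from RNA or cells of another type, at median depths of 3610.5 to 4389 UMIs in T cells and 7501 to 8984.5 in monocytes and macrophages, above the 2498 to 3276.5 of B cells. After each cell was thinned to 1000 UMIs, leaving out 2, 1, 1 and 2 shallower B cells, the shares of B cells fell to 80.6%, 81.9%, 72.4% and 81.6%. Control mouse 1 was the lowest in both counts, and its exact 95% intervals (92.4% to 96.6%, and 68.1% to 76.3% after thinning) lay below both knockout shares. Those of control mouse 2 covered both knockout shares in both counts. Before thinning both knockout mice were above both control mice, and after it control mouse 2 lay between the knockout mice. These intervals cover counting error only, and the difference between genotypes was not tested. A single top gene was found in 3031, 3757, 443 and 499 B cells, and shares below are of these assigned cells, while 64, 81, 11 and 3 cells had tied genes. The top gene held at least 80% of the cell's Ighv UMIs in 85.9% and 86.4% of assigned cells of the knockout mice and in 94.4% and 94.0% of the control mice, whose B cells had fewer UMIs. A second Ighv gene was seen in 30.7%, 27.4%, 16.3% and 20.2% of the assigned cells, and in 46.6%, 45.4%, 61.1% and 63.4% of those cases by 1 UMI.

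Use was uneven, and Ighv1-26 and Ighv3-6 were the first and second genes in every mouse, in reverse order in control mouse 2. Ighv1-26, of the large J558 family in the middle of the locus, was the top gene of 6.04% (183 cells) and 6.81% (256) of B cells in knockout mice 1 and 2 and of 7.22% (32) and 4.41% (22) in control mice 1 and 2. Its shares in the control mice lay on both sides of the knockout mice, and it did not pass the test (log2 change 0.17 ± 0.24 SE, adjusted p = 0.891, edgeR). Ighv3-6, of the 36-60 family, came next with 4.32%, 4.37%, 5.64% and 5.01% of B cells in the same order. Both control mice were above both knockout mice for Ighv3-6, but their exact 95% intervals (3.68% to 8.22% and 3.27% to 7.31%) cover the knockout shares, and the change of -0.29 ± 0.23 had an adjusted p of 0.743 by edgeR. Ighv1-55, Ighv1-18, Ighv9-3, Ighv1-9, Ighv1-64, Ighv2-2, Ighv1-82, Ighv1-81, Ighv8-8, Ighv5-17, Ighv1-53, Ighv6-3 and Ighv1-15 followed, with shares between 1.00% and 4.97% in single mice. This order is by the mean share over all mice and is not kept in every mouse, and neighbours were not tested against each other. The 10 most used genes of each mouse took 32.9% and 33.8% of B cells in the knockout mice and 36.8% and 34.7% in the control mice. Over the 124 genes, Spearman's rho between mice was 0.97 for the knockout pair, 0.83 for the control pair and 0.87 to 0.88 across genotypes. This is a description across genes, and the control libraries rest on fewer cells.

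**Figure D1:**
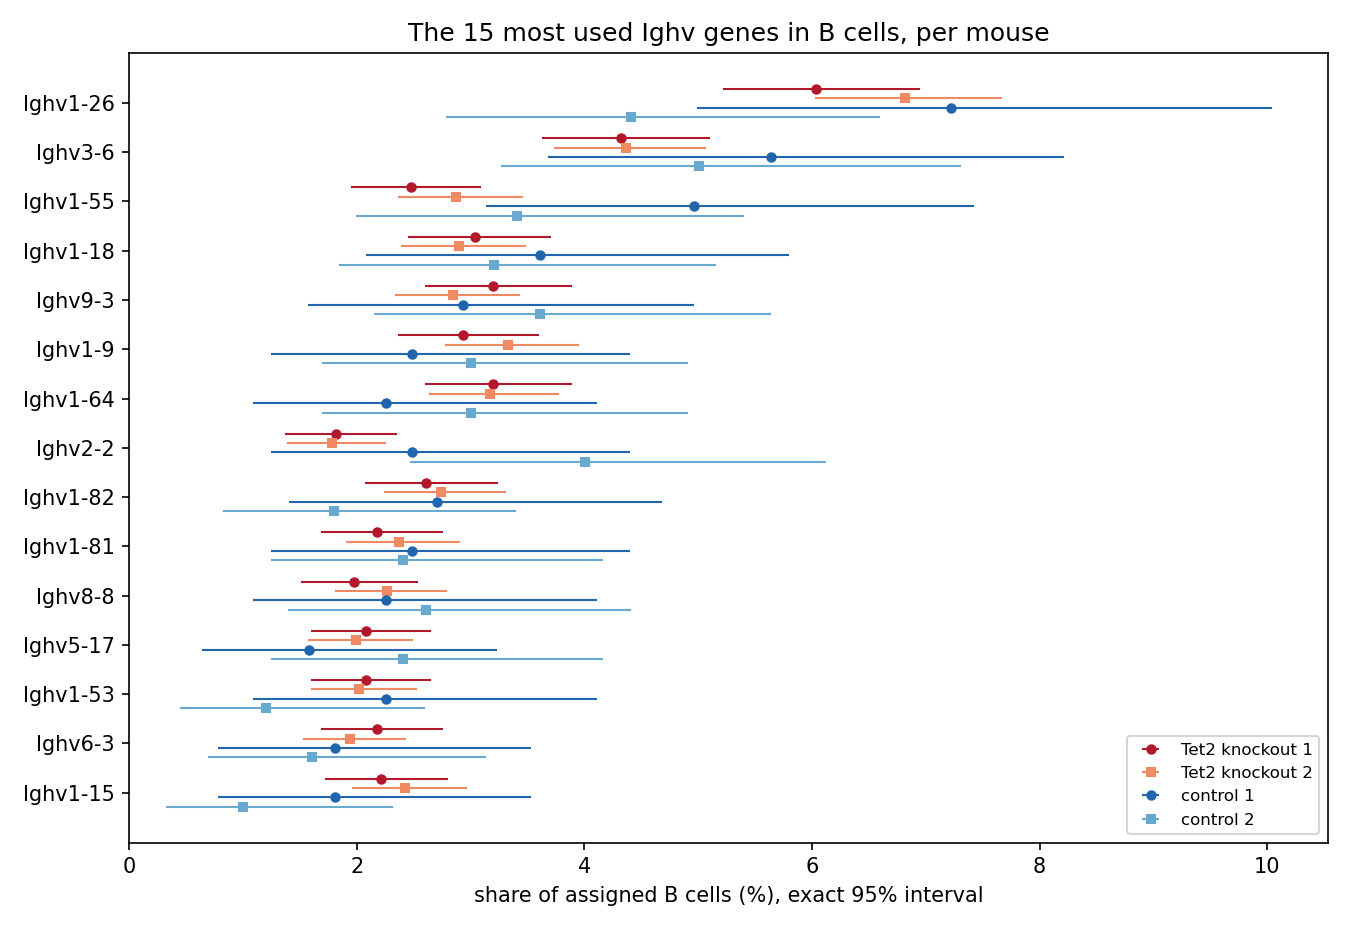
Share of assigned B cells (x axis, %) whose top gene is each of the 15 most used Ighv genes, 1 point per mouse with its exact 95% interval. Ighv1-26 is highest in 3 mice, at 6.04% and 6.81% in the knockout mice and 7.22% in control mouse 1, while in control mouse 2 Ighv3-6 (5.01%) is above it (4.41%), and the intervals of the control mice are wider.

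Families follow the position of their genes, with Ighv2 (Q52) and Ighv5 near the D segments, Ighv1 (J558) and Ighv8 mostly far from them and the small families between. J558, with 65 of the 124 genes, was used by 57.1% and 60.4% of B cells in the knockout mice and by 56.9% and 53.1% in the control mice. Both knockout mice were higher, with knockout mouse 1 close to control mouse 1, and the exact two-sided permutation p was 0.33, the smallest that 2 mice against 2 can give. Ighv1 and Ighv8 together held 61.3%, 64.5%, 61.6% and 56.5%, and the genotypes overlapped. Ighv2 and Ighv5 together held 12.6%, 11.5%, 11.5% and 17.2%, so control mouse 2 stood apart from the other 3 mice. The knockout minus control difference of the Ighv2 and Ighv5 share was -2.31 percentage points with all mice and 0.55 without control mouse 2. The most used Q52 gene, Ighv2-2, which lies 15.3 kb from the first Ighv gene, stood at 1.81% and 1.78% in the knockout mice and at 2.48% and 4.01% in the control mice, with both control mice higher (log2 change -0.87 ± 0.28, adjusted p = 0.129, edgeR). Ighv5-2, 5.6 kb from the first gene, was the top gene of only 5, 3, 4 and 1 B cells. At the far end, Ighv1-82 took 2.61%, 2.74%, 2.71% and 1.80% and Ighv1-85 took 1.02%, 0.612%, 0.903% and 0.802%.

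**Figure D2:**
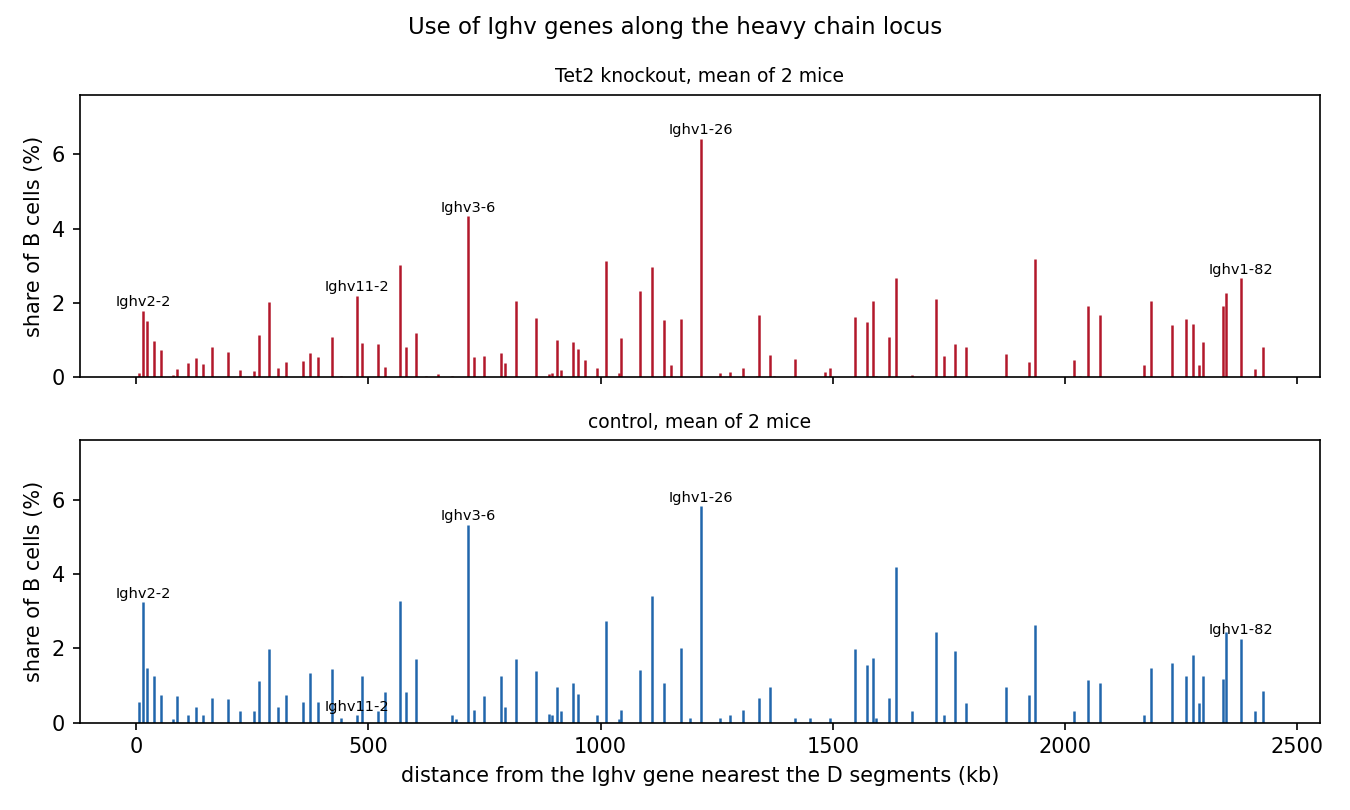
Mean share of B cells (y axis, %) of each Ighv gene used in at least 1 B cell, by its distance in kb from the gene nearest the D segments, in the knockout mice (top) and the control mice (bottom). The same peaks stand in both panels, with Ighv1-26 and Ighv3-6 highest, while the Ighv11-2 line is 2.20% in the knockout mice and 0.200% in the control mice.

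The question whether loss of Tet2 changed V gene usage was put to all heavy and light V genes used in at least 10 B cells, in 1 fit (162 genes, 84 of them among the 124). Ighv11-2 was the 1 Ighv gene that passed the test. It was the top gene of 86 of 3031 B cells in knockout mouse 1 (2.84%, exact 95% interval 2.28% to 3.49%) and of 59 of 3757 in knockout mouse 2 (1.57%, 1.198% to 2.02%). In control mouse 1 it was the top gene of 0 of 443 B cells (exact 95% interval up to 0.829%), and in control mouse 2 of 2 of 499 (0.401%, 0.0486% to 1.44%). Both knockout mice were above both control mice, and the interval of control mouse 2 overlaps that of knockout mouse 2. The log2 change was 3.30 ± 0.66 SE (edgeR quasi-likelihood test, adjusted p = 0.000964). With cells pooled over the mice of a genotype, the ratio of shares was 10.1. Its counting interval was wide, 2.74 to 83.9, since the control mice gave 2 cells in all. That interval treats cells as independent and leaves out the spread between mice, so it does not give the uncertainty of a genotype ratio. Of all 162 V genes tested, 1.23% were called higher and 0.617% lower, 1.85% in all. The median log2 change was -0.03 over the 84 Ighv genes and 0.07 over all 162.

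That call depended on the processing, while its direction did not. It was lost without control mouse 1 (2.41 ± 0.76, adjusted p = 0.0971, edgeR), with doublet calls kept (0.265), with a top gene of at least 3 UMIs (0.0879) or 80% of the cell's Ighv UMIs (0.441), with only Ighm or Ighd cells (0.425), after thinning (0.517), with TMM factors (0.102) and by DESeq2 (0.381). With B cells holding no UMI of Cd3e or Csf1r it was kept, at a log2 change of 4.01. The 7 alternatives that kept the call and the 8 that lost it all gave a change of at least 2.41. Ighv11-1, whose V exon is 98.7% identical, had 26 UMIs in all 4 libraries against 40258 of Ighv11-2, and was the top gene of no B cell.

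**Figure D3:**
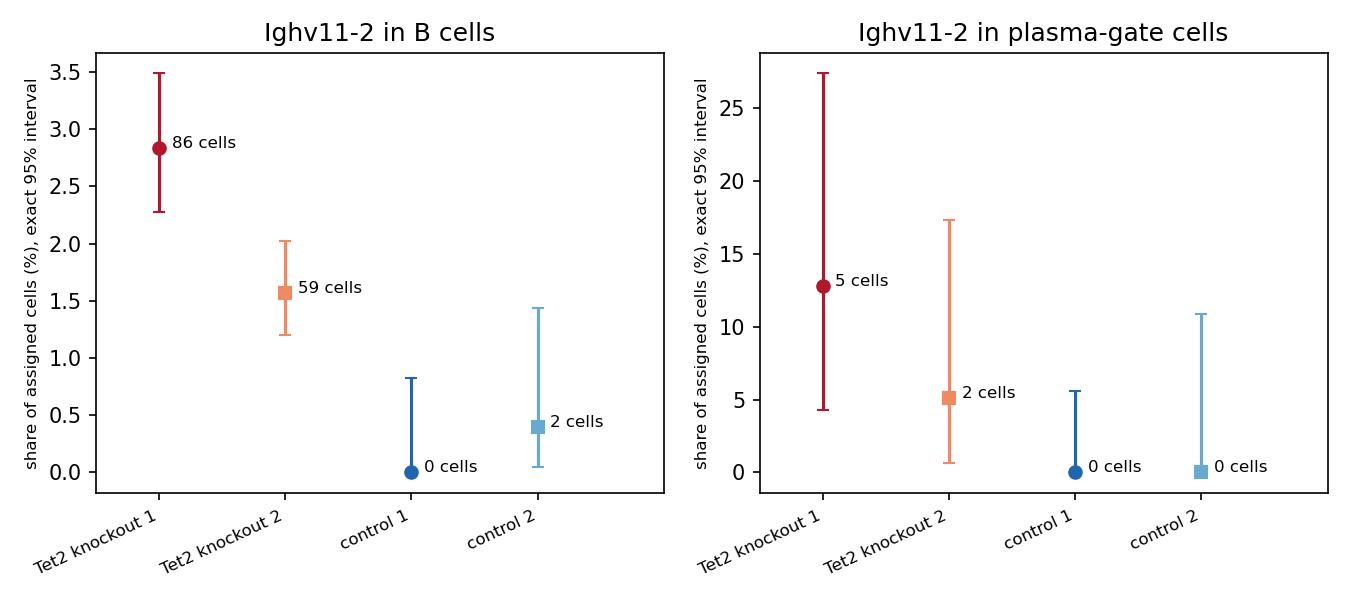
Share of assigned B cells (left) and plasma-gate cells (right) whose top gene is Ighv11-2, in %, with the exact 95% interval and the number of cells per mouse. The 2 knockout mice give 86 and 59 B cells and 5 and 2 plasma-gate cells, and the 2 control mice 0 and 2 B cells and no plasma-gate cell.

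No other Ighv gene passed. At an unadjusted p under 0.05 there were 14 of the 84, 7 higher and 7 lower, and 19 of all 162 V genes, 9 higher and 10 lower. Ighv2-2, Ighv1-7 and Ighv1-39 came next by p, and Ighv1-39 was the top gene of 44 and 72 cells in the knockout mice and of 4 and 2 in the control mice (adjusted p = 0.132, edgeR). Ighv1-7 was the top gene of 14 and 18 cells in the knockout mice and of none of the 942 of the control mice (adjusted p = 0.129, edgeR). With the control group set to a floor of 3 cells, the pooled knockout share was 1.48-fold the control share. This ratio rests on the chosen floor and is not a lower limit. Ighv1-7 and Ighv1-39 were named after their values were seen, and Ighv1-7 is among the genes at least 97% identical to another. On 1 simulated draw per fold, with the changed V genes picked at random, the test recovered 60% of 20 simulated 4-fold changes in usage. It recovered none of 20 simulated 2-fold changes. The spread between simulated mice was a fixed setting, not estimated from these data. Under that setting, a 2-fold difference in the use of a gene could be missed at this number of cells and mice. How this depends on the use of the gene was not tested. The other textbook genes did not pass. Ighv12-3 was the top gene of 18, 6, 2 and 2 B cells in the same order of mice. Ighv7-1, of the T15 antibodies against phosphorylcholine, had 14, 14, 4 and 3 cells, and Ighv1-72, of the response to the hapten NP, had 57, 84, 6 and 8.

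The light chain partner set the Ighv11-2 cells apart. Igkv14-126 was the top kappa gene in 81 of 86 Ighv11-2 B cells of knockout mouse 1 (94.2%, exact 95% interval 87.0% to 98.1%), in 56 of 59 of knockout mouse 2 (94.9%, 85.9% to 98.9%) and in both cells of control mouse 2. Among B cells with another Ighv gene, Igkv14-126 was top in 0.308%, 0.518%, 0.457% and 0.203% of cells, the knockout mice first. The 15 most used Ighv genes were each paired with 53 to 76 light V genes over the 4 mice, and the commonest partner of any of them took at most 10.3% of its cells. In the usage fit Igkv14-126 was also higher in the knockout mice (log2 change 2.21 ± 0.44, adjusted p = 0.000964, edgeR), on 90, 75, 2 and 3 cells, most of them Ighv11-2 cells in 3 of the 4 mice, so the pair of results rests on the same cells. Ighv12-3 was paired with Igkv10-96 in 13 and with Igkv4-91 in 7 of its 28 B cells, and 12 of the 13 came from knockout mouse 1. The V pair does not show whether such cells are 1 clone, because the sequence at the junction was not analysed here.

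Ighv11-2 B cells mostly had Ighm on top and held more UMIs than other B cells. The top constant gene was Ighm in 84 of 86 cells of knockout mouse 1, in 56 of 59 of knockout mouse 2 and in both of control mouse 2. Among all assigned B cells of the knockout mice it was Ighm in 69.6% and 68.2%, with no constant gene on top or a tie in 16.2% and 16.7%. Their median was 29 Ighv11-2 UMIs per cell in knockout mouse 1 and 28 in knockout mouse 2, against 7 UMIs of the top gene over all assigned B cells of either mouse. Total UMIs per cell were also higher, with medians of 7270 and 6385 against 3290 and 3091. Ighm was also on top in 26 of 28 Ighv12-3 cells. The 18 of knockout mouse 1 had medians of 30 Ighv12-3 UMIs and 6031.5 total UMIs. In the 6 of knockout mouse 2 the medians were 13, with quartiles of 4.75 and 27.25, and 6404.5. The 2 cells of control mouse 1 had medians of 43.5 and 4927, and the 2 of control mouse 2 had 10 and 4451.

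The genes expressed in Ighv11-2 cells were compared with those of all other assigned B cells of the same mouse, in the 2 knockout mice, with mouse as a block. Ighv11-2 chose these cells and all V genes were left out, and the comparison was added after the usage result was known. Of 11396 genes tested, 658 (5.77%) were higher and 617 (5.41%) lower, 11.2% in all. Zbtb32, Bhlhe41 and Cd5 were among the genes that rose. Zbtb32, which encodes a transcription factor that restrains B cell responses, was at 85.5 CPM in Ighv11-2 cells and 6.90 in other B cells of knockout mouse 1, and at 58.4 and 7.64 in knockout mouse 2 (log2 change 3.32 ± 0.30). Bhlhe41, a transcription factor gene needed for B-1a cells, stood at 25.6 against 7.37 CPM and at 28.04 against 6.66 (1.92 ± 0.44). Cd5, the surface marker of B-1a cells, was at 49.9 against 9.99 CPM and at 46.7 against 13.1 (2.10 ± 0.31). Fcrl5, Cd300lf, Ctla4, Cd9, Plscr1, Ahnak, Nt5e, Cd80, Anxa2, Lgals1, Spn (CD43) and Ighm were called higher as well.

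Several genes of the list were lower. Fcer2a, the IgE receptor CD23 of follicular B cells, was at 27.1 CPM in Ighv11-2 cells and 293 in other B cells of knockout mouse 1, and at 14.02 and 284 in knockout mouse 2 (log2 change -3.74 ± 0.21). Cr2, the complement receptor CD21, was at 4.27 against 51.0 CPM and at 11.7 against 54.0 (-2.86 ± 0.38). Ighd and Cd55 also fell. Of the 24 genes of this subset list, which was drawn up with results known, 15 were called higher and 4 lower by edgeR at an adjusted p under 0.05. The other 5 were not called. S100a6 had a positive change (1.66 ± 0.32, adjusted p = 0.0532, edgeR). The changes of Pdcd1lg2 (-0.56 ± 0.25), Cd1d1 (-0.51 ± 0.37), Itgam (-0.39 ± 0.47) and Tbx21 (-0.15 ± 0.49) were negative.

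**Figure D4:**
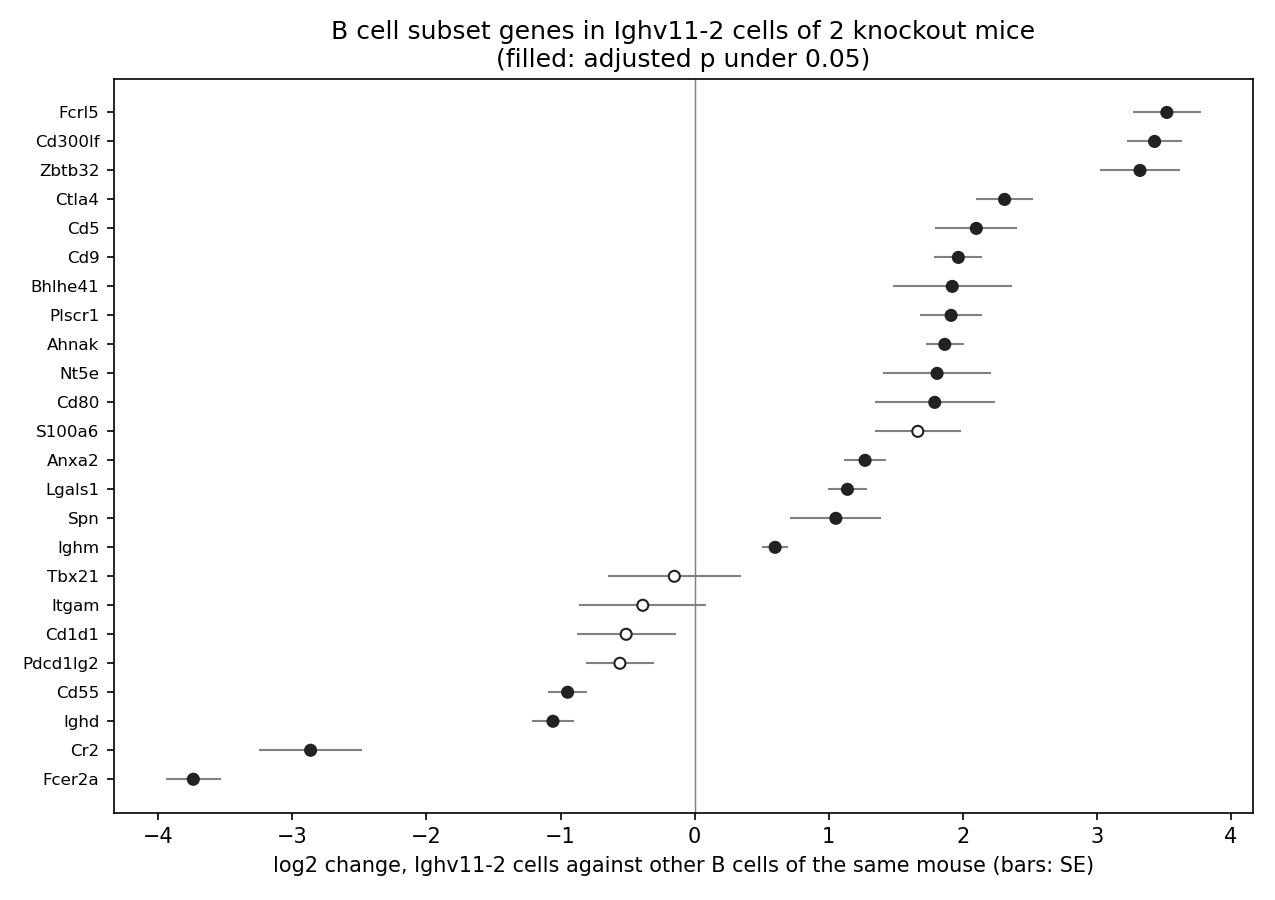
Log2 change (x axis, with SE) of 24 B cell subset genes in Ighv11-2 cells against other B cells of the same mouse, in 2 knockout mice. Filled points passed an adjusted p under 0.05; Fcrl5, Cd300lf and Zbtb32 lie at the right end above 3, and Fcer2a and Cr2 at the left end below -2.

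By size, among called genes outside the immunoglobulin loci with a mean of at least 20 CPM and the same direction in both mice, Wipf3, Gm26704, Etl4, Rab3b, Oosp1, Gm30382 and Pou2af2 led those that rose. Pou2af2, which encodes a coactivator of octamer-binding factors, was at 202 CPM against 13.5 in knockout mouse 1 and at 241 against 8.36 in knockout mouse 2 (4.35 ± 0.19). Sox5, a transcription factor gene, was at 174 against 16.4 CPM and at 152 against 10.8 (3.59 ± 0.21). Among those that fell were Zfp608, Lrrk2, Vpreb3, Ccr6 and Satb1. C1qa, C1qb and C1qc, complement genes of macrophages, fell too: C1qa was at 0.0 and 2.34 CPM in Ighv11-2 cells and at 73.9 and 61.9 in other B cells. The 6 monocyte and macrophage markers summed to 1334 and 731 CPM in Ighv11-2 cells of knockout mice 1 and 2 and to 1295 and 1379 in their other B cells, with 4 of 6 called lower. The 4 neutrophil markers summed to 9.97 and 1928 CPM against 279 and 186.1, with none called. The part of such RNA in these results was not tested.

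The second measure of usage was the UMIs of each gene summed over the B cells of a mouse, tested across all 12028 genes with enough counts, 93 of them among the 124. It rises both with the share of cells that use a gene and with the UMIs in each. Ighv1-80, a J558 gene 2339.4 kb from the first Ighv gene, was the 1 Ighv gene called, where 0.166% of all genes tested were called higher and 0.948% lower, 1.11% in all. It was at 33.6 and 32.7 CPM in the knockout mice and at 8.49 and 11.9 in the control mice, and the groups did not overlap (log2 change 1.71 ± 0.22, adjusted p = 0.0409, edgeR). Its usage by cells was 1.85%, 1.97%, 1.35% and 1.00%, which did not pass (0.71 ± 0.38, adjusted p = 0.508, edgeR). The Ighv1-80 call was lost among B cells with no Cd3e or Csf1r UMI and without either knockout mouse (adjusted p = 0.0778, 0.156 and 0.160, edgeR). Ighv11-2 was at 201, 105, 0.0 and 14.03 CPM and missed the threshold (4.52 ± 0.86, adjusted p = 0.0754, edgeR). The median log2 change was 0.32 over the 93 Ighv genes and -0.01 over all genes, and 28 of the 93 had an unadjusted p under 0.05, 20 higher and 8 lower, where 2502 of all 12028 genes did, 1016 higher and 1486 lower. The number of Ighv genes called moved when a mouse was left out, and the share of all genes called in those fits is not given here. The monocyte and macrophage markers, whose level in B cells was higher in the control mice as given above, move with this comparison. The 4 neutrophil markers do too, at 263 and 221 CPM in B cells of the knockout mice and 624 and 2431 in those of the control mice. The part of such RNA in the comparison was not tested.

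Around the heavy chain locus, 36 genes of the immunoglobulin constant regions, recombination and the B cell receptor were listed, and 30 had enough UMIs to be tested. None was called between genotypes by edgeR, where 1.11% of all genes tested were. An unadjusted p under 0.05 was found for 9 of the 30 and for 2502 of all 12028 genes. DESeq2 called 3, and its share over all genes is not given here. Cd79a set the gate. Ighm was at 787 and 731 CPM in the knockout mice and at 586 and 644 in the control mice (0.30 ± 0.14, adjusted p = 0.289, edgeR), and Pou2f2 was at 143, 144, 125 and 193 CPM. Rag1, Rag2 and Dntt, which act in V gene joining in precursors, had too few UMIs to be tested. Between Ighv11-2 cells and other B cells, 8 of the 30 were higher, namely Ighm, Iglc1, Iglc2, Iglc3, Cd79b, Pou2f2, Mzb1 and Prdm1. The 11 that were lower were the constant genes Ighd, Ighg1, Ighg2b and Ighg2c, the transcription factor genes Pax5, Ebf1, Pou2af1 and Irf8, and Cd79a, Vpreb3 and Syk. Of all 11396 genes tested between these cells, 5.77% were higher and 5.41% lower. Mzb1 and Prdm1 are known in antibody-secreting cells. Jchain, which joins secreted IgM and IgA, was lower (log2 change -4.88 ± 0.55). Sdc1, a plasma cell surface gene, did not pass (-2.31 ± 0.89, adjusted p = 0.0683, edgeR). Only 0.910% and 1.14% of all B cells of knockout mice 1 and 2 held a Jchain UMI. For Prdm1 the shares were 2.70% and 2.03% and for Sdc1 3.42% and 2.54%, so these 3 levels rest on few cells. B cells with 5 or more UMIs of Jchain and 2 or more of Xbp1 had been counted as plasma-gate cells, so the Jchain level in B cells is bounded by the gate.

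The number of different Ighv genes in equal samples of cells was similar. The number expected in 443 B cells was 79.7 and 78.5 in the knockout mice and 82.0 and 81.3 in the control mice. Both control mice were higher, and the exact two-sided permutation p was 0.33, the smallest possible. Weighted by use, the Shannon effective number was 63.1 and 61.5 in the knockout mice and 56.1 and 59.6 in the control mice, the opposite order, also at p = 0.33 by exact permutation. The Shannon number was not corrected for the smaller number of control cells. The inverse Simpson number overlapped between genotypes, at 49.3 and 47.0 against 45.1 and 52.03.

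Plasma-gate cells held most of the Ighv RNA. They were 0.245% to 0.541% of the cells of a mouse and had 72.0% and 61.7% of all Ighv UMIs in cells of the knockout mice and 96.3% and 94.4% in the control mice. The median was 2014 and 1333 UMIs of the top gene per plasma-gate cell in the knockout mice and 2313.5 and 2845 in the control mice. The 10 cells with most Ighv UMIs took 33.1% to 49.9% of the total of their mouse, so a sum of UMIs over all cells describes a few cells.

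The most used genes of plasma-gate cells differed from mouse to mouse. In knockout mouse 1 they were Ighv11-2 with 5 of 39 cells and Ighv1-55, Ighv2-2, Ighv3-6 and Ighv5-17 with 3 each. In knockout mouse 2 they were Ighv1-39 and Ighv3-6 with 3 of 39 cells each. In control mouse 1 they were Ighv1-55 and Ighv3-6 with 8 of 64 cells each and Ighv2-9-1 with 7, and in control mouse 2 Ighv6-3 with 5 of 32. Spearman's rho over the 124 genes was 0.29 to 0.38 between the plasma-gate cells of any 2 mice, on 32 to 64 cells each, and 0.43 to 0.54 between plasma-gate and B cells of a mouse. Of 163 V genes, 85 of them Ighv, none passed the test of plasma-gate against B cells with mouse as a block (edgeR; 0.0% called, and 4 Ighv genes had an unadjusted p under 0.05). Ighv1-18 was the top gene of 92, 109, 16 and 16 B cells and of none of the 174 plasma-gate cells (adjusted p = 0.814, edgeR). Ighv11-2 was at 12.8% and 5.13% of plasma-gate cells in the knockout mice and at 0 of 64 and 0 of 32 in the control mice. The exact 95% intervals of the control mice reach up to 5.60% and 10.9%. Only 2 Ighv genes, Ighv1-55 and Ighv3-6, had the 10 plasma-gate cells needed for a test between genotypes, and neither passed (edgeR; 0.0% of 4 V genes called, 0 with an unadjusted p under 0.05).

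Some V pairs recurred among the plasma-gate cells of a mouse. In control mouse 1, 31 of 64 cells (48.4%) shared their heavy and light V genes with another cell, against 11 of 39 (28.2%) and 6 of 39 (15.4%) in the knockout mice and 2 of 32 (6.25%) in control mouse 2. Control mouse 1 had 9 recurring pairs. The most frequent were Ighv2-9-1 with Iglv1 in 7 cells, Ighv1-55 with Iglv1 in 6 and Ighv3-6 with Igkv1-110 in 6. Igha was the top constant gene in 5, 6 and 6 of these cells, while Ighv8-12 with Igkv4-80 had Ighm on top in both of its 2 cells. IgA is the antibody class of mucosal surfaces. In the knockout mice the pair Ighv11-2 with Igkv14-126 recurred, in 5 and 2 cells, all with Ighm on top. Knockout mouse 1 also had Ighv12-3 with Igkv10-96 in 2 cells, with Ighm. Its pairs Ighv2-2 with Igkv6-32 and Ighv3-6 with Igkv8-28 had 2 cells each, with Igha. In knockout mouse 2, Ighv1-39 with Igkv15-103 and Ighv1-85 with Igkv9-120 had 2 cells each, also with Igha. Over all plasma-gate cells Igha was the top constant gene of 20 of 39, 18 of 39, 52 of 64 and 17 of 32 cells, and Ighm of 13, 12, 5 and 3.

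**Figure D5:**
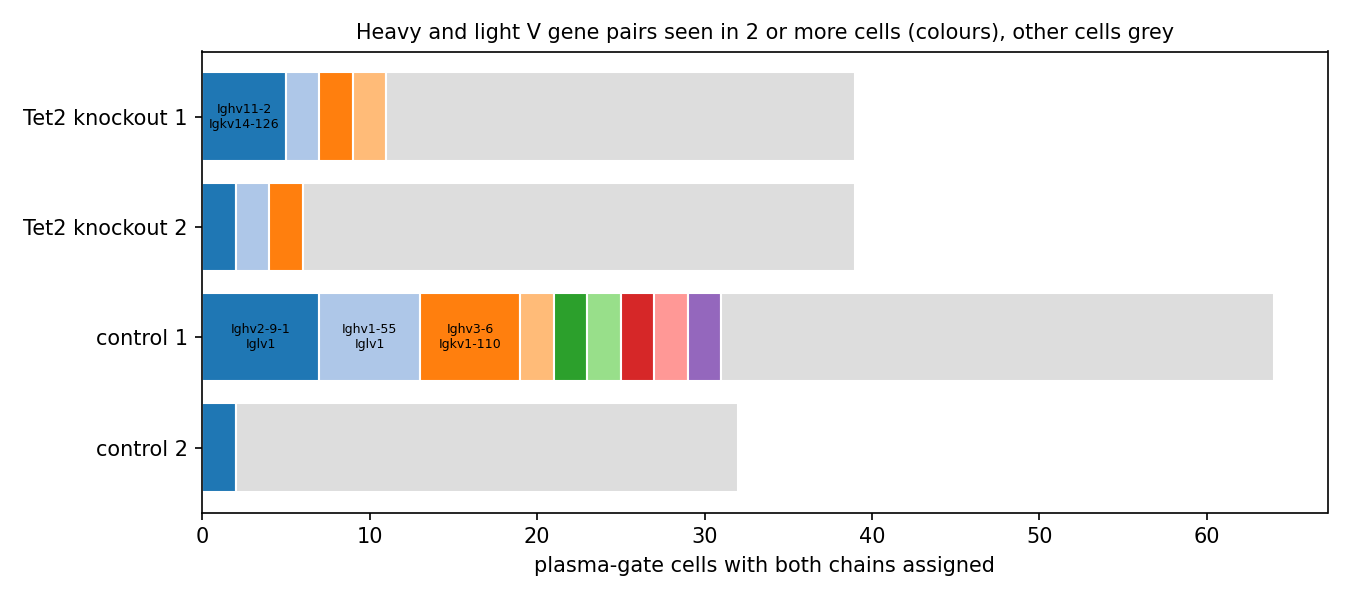
Plasma-gate cells with both chains assigned, per mouse (x axis, number of cells); each coloured block is a heavy and light V gene pair seen in at least 2 cells of that mouse, colours have no meaning across mice, and blocks of 5 cells or more carry their names. Coloured cells are 11, 6, 31 and 2 of 39, 39, 64 and 32.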

How the data were processed

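Per the labels, leukocytes were sorted as live CD45-positive cells and made into 5′ gene expression libraries targeting 10000 cells each. The genome GRCm39 and the tools Cell Ranger 8.0.1, R 4.4.1 and Seurat 5.0.1 are listed in the submitters' processing notes, without their order. The deposited matrices hold UMI counts per gene and barcode, with no scaling. How reads matching several genes were counted, and the annotation release, are not given in the sources used here. The T cell receptor libraries were not used here.

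Cells had to show 200 genes or more and no more than 10% of UMIs from mitochondrial genes, and Scrublet doublet calls (expected rate 0.8% per 1000 cells, scanpy 1.11.5) were removed. Numbers of cells by top V gene (Ighv, Igkv and Iglv, at least 10 cells) and UMI counts summed per mouse were tested by edgeR 4.0.16 quasi-likelihood fits (R 4.3.3), two-sided, with Benjamini-Hochberg adjustment over the whole table and a threshold of 0.05. The offset for usage was the number of assigned cells of that chain, and the UMI fits used filterByExpr and TMM factors. DESeq2 1.42.0 was an alternative. Intervals are exact binomial at 95% and, like the floor of 3 counts, cover counting error only. Expected numbers of genes are Hurlbert's. With 2 mice per genotype, stated as biological replicates, the tests borrow their estimate of spread from all genes or V genes in the table. The tests were checked on simulated data.

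V exons, recombination signals and promoters were read from GRCm39 with the GENCODE M39 annotation in the reference provided. A signal was taken as the 7 and 9 letters around a 23-base spacer that best matched CACAGTG and the consensus nonamer, within 6 bases before to 12 after the V exon's end. Named genes were the 15 most used in B cells, genes past a threshold, the 3 most used in plasma-gate cells of each mouse, and textbook genes. The genes, lists and rules were chosen with earlier results of these data known, and the Ighv11-2 comparison, with its gene list and naming rule, after its values were seen. A gene of that list is not reported here.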

Additional observations from a re-analysis of the deposited data

How the results depend on the processing

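Usage of Ighv genes in B cells gave 1 call, and 0 with doublet calls kept, a top gene of at least 3 UMIs or of 80% of V UMIs, Ighm or Ighd cells, thinning, TMM factors or DESeq2. Leaving out a mouse gave 0 to 1, with 0 without control mouse 1. Summed UMIs gave 1 Ighv call, 10 with doublet calls kept, 0 without Cd3e or Csf1r cells and 2 with total UMIs as the scale. They gave 29 with no filter, where 121 Ighv genes were tested in place of 93, and 7 by DESeq2. The share of all genes called in these alternative fits, and in those without a mouse, is not given here. Whether the Ighv counts differ from that share was therefore not shown. Leaving out a mouse gave 0 to 35, with 0 without either knockout mouse, 35 without control mouse 1 and 33 without control mouse 2. Ighv5-17 had a UMI log2 change of 0.06, which was -0.62 without control mouse 1 and 1.31 without control mouse 2. Of Ighv11-2 cells against other B cells, DESeq2 called 289 genes higher and 170 lower, and the fit with no replicate block (mouse) 377 lower, against 658 and 617. The difference in expected genes, -2.57, was -1.60 with a top gene of at least 3 UMIs and -3.34 without Cd3e or Csf1r cells. The difference in B cells with an Ighv UMI, 1.44 percentage points, was 4.28 after thinning. The cause of these changes was not tested. No plasma-gate genotype value could be fitted without control mouse 1, and the Ighv11-2 cell comparison has no fit without a knockout mouse, since 1 mouse would remain.

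Replicate numbers are shared by the genotypes, but the labels name no shared litter or batch. Deviations of same-numbered mice correlated at -0.06 over 12028 genes and at -0.24 over 84 Ighv genes. With the replicate block, the UMI fit called 2 Ighv genes and the usage fit called Ighv11-2 (log2 change 3.31, adjusted p = 0.000114, edgeR). The 2 control mice have 942 assigned B cells against 6788, which limits the precision of every usage share.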
